A study of Dirofilaria immitis with 5 samples.

Results

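Small RNAs in the culture medium of third-stage larvae of Dirofilaria immitis, the canine heartworm, were set against those in the medium of adult males. The larvae are the stage that mosquitoes pass to a dog, and the males come from the end of the life cycle. Each side had 1 library, and the series held 1 further library each of microfilariae, fourth-stage larvae and adult females. Live whole worms were kept in culture, and RNA was taken from the concentrated medium. The labels give no treatment, strain, worm number or culture time for any library. The deposited table listed 1228 distinct sequences of 18 to 25 nt, each with its reads in every library. A sequence was compared where it had 10 or more reads in either of the 2 libraries, which left 63: 37 named after known nematode miRNAs and 26 predicted candidates, whose names begin with PC. These 63 held 99.5% of the larval and 99.2% of the male table reads. The other 1165 sequences had at most 9 reads in each library, and 987 of them had 0 reads in both. Because nothing was replicated, no test was possible, and each comparison below is between 2 libraries. A fold is the ratio of 2 shares of the table reads, larvae over males, and is called at 2-fold. Parentheses after a value hold its exact 95% binomial interval, which covers counting error only. With 1 library a side, it holds no variation between worms, cultures or preparations. It also takes reads as independent, and may be too narrow, since amplified reads that carry no molecular identifier may copy the same molecule.

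A miRNA is a short RNA that guides an Argonaute protein to messenger RNAs, chiefly by pairing of its seed, bases 2 to 8, and miRNAs with one seed are grouped as a family. In Caenorhabditis elegans lin-4 and let-7 were found as regulators of the order of larval cell fates. lin-4 appears early in larval life and let-7 towards the adult stage. Parasitic nematodes release miRNAs into the fluids around them, partly inside vesicles.

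The sequences that carry the comparison are shown with the seed in capitals, and only for those with no match listed in the dog genome. The lin-4 pair holds bma-lin-4, which led both libraries, and a rare variant. They differ by T19C, from asu-lin-4-5p to bma-lin-4, with positions counted from 1 at the 5′ end.
bma-lin-4: tCCCTGAGacctctgctgcga
asu-lin-4-5p: tCCCTGAGacctctgctgtga
The miR-100 rows share a seed, yet their ratios differed, and the candidate PC-5p-700_1781 carries the same seed and differs by G23T, from the candidate to bma-miR-100c_R+1_1ss12CT.
bma-miR-100a_R+1: aACCCGTAgtttcgaacatgtgt
bma-miR-100b_R+1: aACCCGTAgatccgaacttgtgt
bma-miR-100c_R+1_1ss12CT: aACCCGTAgaattgaaatcgtgt
bma-miR-100d_R+1: tACCCGTAgctccgaatatgtgt
PC-5p-700_1781: aACCCGTAgaattgaaatcgtgg
The miR-57 pair holds a form read in males alone, which differs from the common one by A9G and G24C, from asu-miR-57-5p_1ss24TG to bma-miR-57.
bma-miR-57: tACCCTGTggtaccgagctgtgtct
asu-miR-57-5p_1ss24TG: tACCCTGTagtaccgagctgtgtgt
A further set had shares 12-fold lower or more in larvae, and its first pair is a miR-2 sequence and a candidate that contains it whole.
bma-miR-2c_1ss20TC: cATCACAGcacgattcggccc
PC-3p-2685_459: cATCACAGcacgattcggcccgt
bma-miR-36a_R+1_1ss19GA: tCACCGGGtgcacattcgatc
bma-miR-1822: gAGCTGCCccttgaaagactaa
PC-3p-5721_189: tAATATCAtatgaaagccgaaga
asu-miR-279a-3p_1ss9TA: tGACTAGAaccatactcagct
PC-5p-2587_476: cATTTAGTggaccaatttttt
asu-miR-71-5p_R-2: tGAAAGACatgggtagtgaga
asu-miR-5360-5p: aCGAATCGtcgaatcggatgtct
The last set had near-equal shares in both libraries, apart from PC-3p-408_2810, which was higher in larvae.
bma-miR-92_R+2: tATTGCACtcgtcccggcctga
bma-miR-50: tGATATGTctgatattcttgggtt
bma-miR-5364: cGAGGTATtgtttattggctga
PC-3p-408_2810: gAATTCCTctgcggtagttactgga

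The libraries had nearly the same depth in the table, 34448 reads for third-stage larvae and 32983 for males, which were 0.870% of the larval and 1.002% of the male mappable reads. The other libraries were far deeper, with 727018 table reads in microfilariae, 326187 in fourth-stage larvae and 376070 in females. Their read numbers below are therefore not on the scale of these. Reads under 18 nt were 21.1% in larvae and 43.8% in males of all reads with an adapter, and reads over 25 nt were 38.2% in larvae and 5.76% in males. A count of 0 allows a share of up to 0.00871% in larvae and 0.00910% in males. No row carried a name from the lists of vertebrate blood cell, liver or vessel miRNAs, but the table names its rows after nematode miRNAs or as candidates. The part of these library differences in the ratios was not tested.

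Both libraries were led by bma-lin-4. It had 24320 reads in larvae, or 70.6% (70.1 to 71.1), against 11792 reads in males, or 35.8% (35.2 to 36.3). Its share was therefore 1.97-fold (1.93 to 2.02) higher in larvae, or 1.71-fold higher when counted per mappable read. In medium of whole worms, fewer releasing cells and less RNA released per cell cannot be told apart. In the remaining libraries bma-lin-4 had 31 reads in microfilariae, 292336 in fourth-stage larvae and 922 in females. The variant asu-lin-4-5p had 12 reads in larvae and 10 in males. Without bma-lin-4, 10128 reads were left in larvae and 21191 in males, so that leaving it out multiplied every other ratio by 2.19, a shift of 1.13 on the log2 scale.

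The larval library was spread over fewer sequences. The 5 most abundant rows reached 90% of the larval reads, while 15 were needed in males, and the 10 most abundant rows held 95.7% in larvae and 84.5% in males. Of those 10 rows, 6 were in both sets, namely bma-lin-4, bma-miR-100a_R+1, bma-miR-100b_R+1, bma-miR-100d_R+1, bma-miR-92_R+2 and bma-miR-228. The other larval ones were PC-3p-389_2939, asu-let-7-5p, bma-miR-5364 and hco-miR-9, and the other male ones were asu-miR-279a-3p_1ss9TA, PC-5p-799_1592, asu-miR-5360-5p and bma-miR-100c_R+1_1ss12CT. Across the 63 rows, Spearman's rho between the read numbers was 0.27, a description over sequences of 2 libraries. Rows low in both libraries were left out, and 10 rows entered through larvae alone and 26 through males alone. Such a choice of rows can lower rho.

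**Figure D1:**
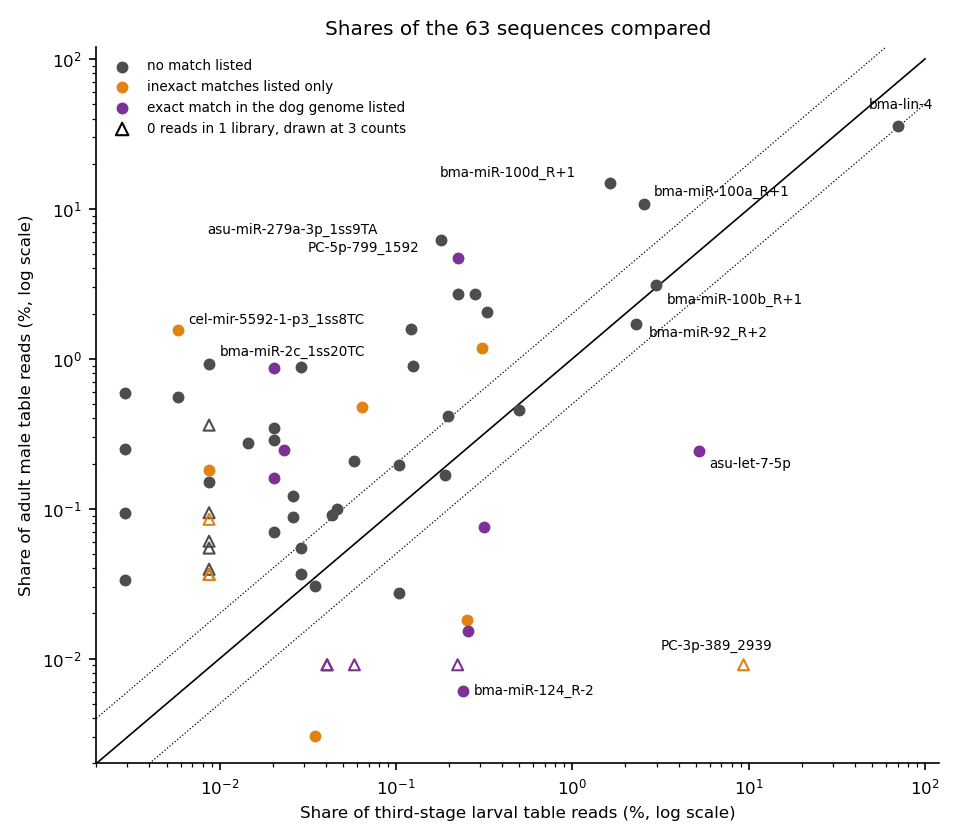
Share of the table reads of each of the 63 sequences in third-stage larvae (x axis, %, log scale) and adult males (y axis, %, log scale), coloured by the matches listed in the dog genome. The solid line marks equal shares, the dotted lines 2-fold, and triangles stand for sequences with 0 reads in 1 library, drawn at 3 counts there. bma-lin-4 sits at the upper right close to the 2-fold line, at 70.6% in larvae and 35.8% in males, and more points lie above the lines than below them.

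The lengths of the reads differed in the same table. Sequences of 21 nt, the length of bma-lin-4, took 71.3% of the larval and 50.9% of the male reads, while those of 23 nt, the length of the 4 miR-100 rows, took 8.92% of the larval and 37.9% of the male reads. With bma-lin-4 left out, sequences of 18 nt held 32.4% of the larval reads against 3.76% in males, nearly all through PC-3p-389_2939, which had 3219 of the 3284 larval reads of that length. Sequences of 22 nt, with asu-let-7-5p the most abundant, held 29.5% in larvae and 7.16% in males, and those of 21 nt held 2.39% in larvae and 23.6% in males.

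**Figure D2:**
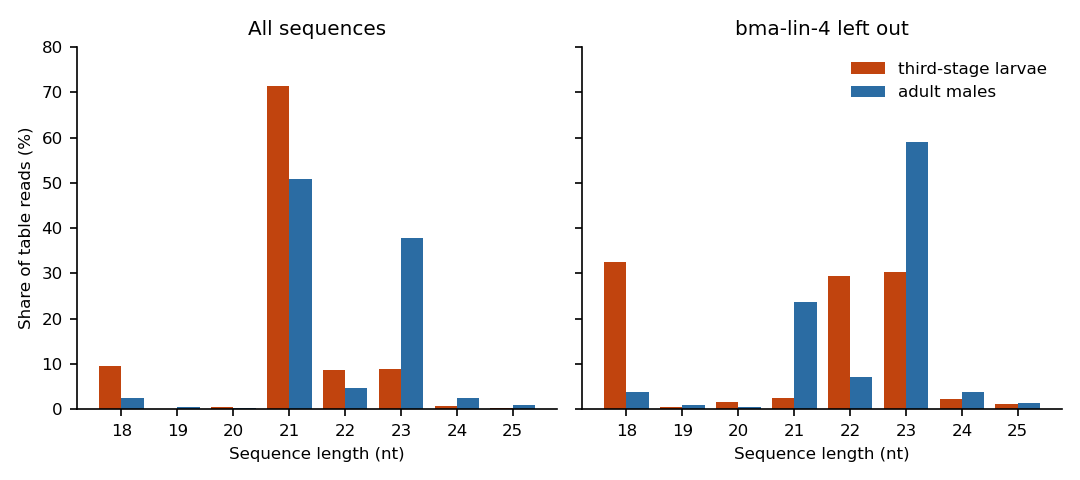
Share of table reads (y axis, %) by sequence length (x axis, nt) in third-stage larvae and adult males, for all sequences on the left and with bma-lin-4 left out of both libraries on the right. Without bma-lin-4 the larval reads are divided among 18, 22 and 23 nt at 32.4%, 29.5% and 30.3%, and the male reads peak at 23 nt with 59.0%.

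Of the 63 sequences, 12 (19.0%) were at least 2-fold higher in larvae and 42 (66.7%) at least 2-fold lower, and the median log2 ratio was -2.18. The interval left out equal shares for all 12 and all 42, and it lay wholly past 2-fold for 10 and 36 of them. It rests on the same reads as the call and adds no independent support. Of the 63, 27 had 10 or more reads in both libraries, 10 in larvae alone and 26 in males alone. Those in 1 library alone were compared only through the side where they were high, which favours a call. With bma-lin-4 left out, 17 of 62 (27.4%) were higher and 32 (51.6%) lower, with a median of -1.07. The split moved with the scaling. Against shares of the table, every log2 ratio shifted by 2.01 under TMM, by 1.75 under median of ratios, by 2.36 with the authors' library size parameter and by -0.20 per mappable read. The counts higher and lower became 21 and 24 under TMM, 19 and 28 under median of ratios, 24 and 21 with the authors' parameter, and 12 and 44 per mappable read. Since each scaling moves all ratios by one factor, the rows at the ends kept their calls. At 2-fold, 12 were higher and 21 lower under the table shares and 6 other scalings, with PC-3p-389_2939 counted under the 5 that keep it in the sums. The 12 were 9 named rows and 3 candidates, and the 21 were 10 named rows and 11 candidates.

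**Figure D3:**
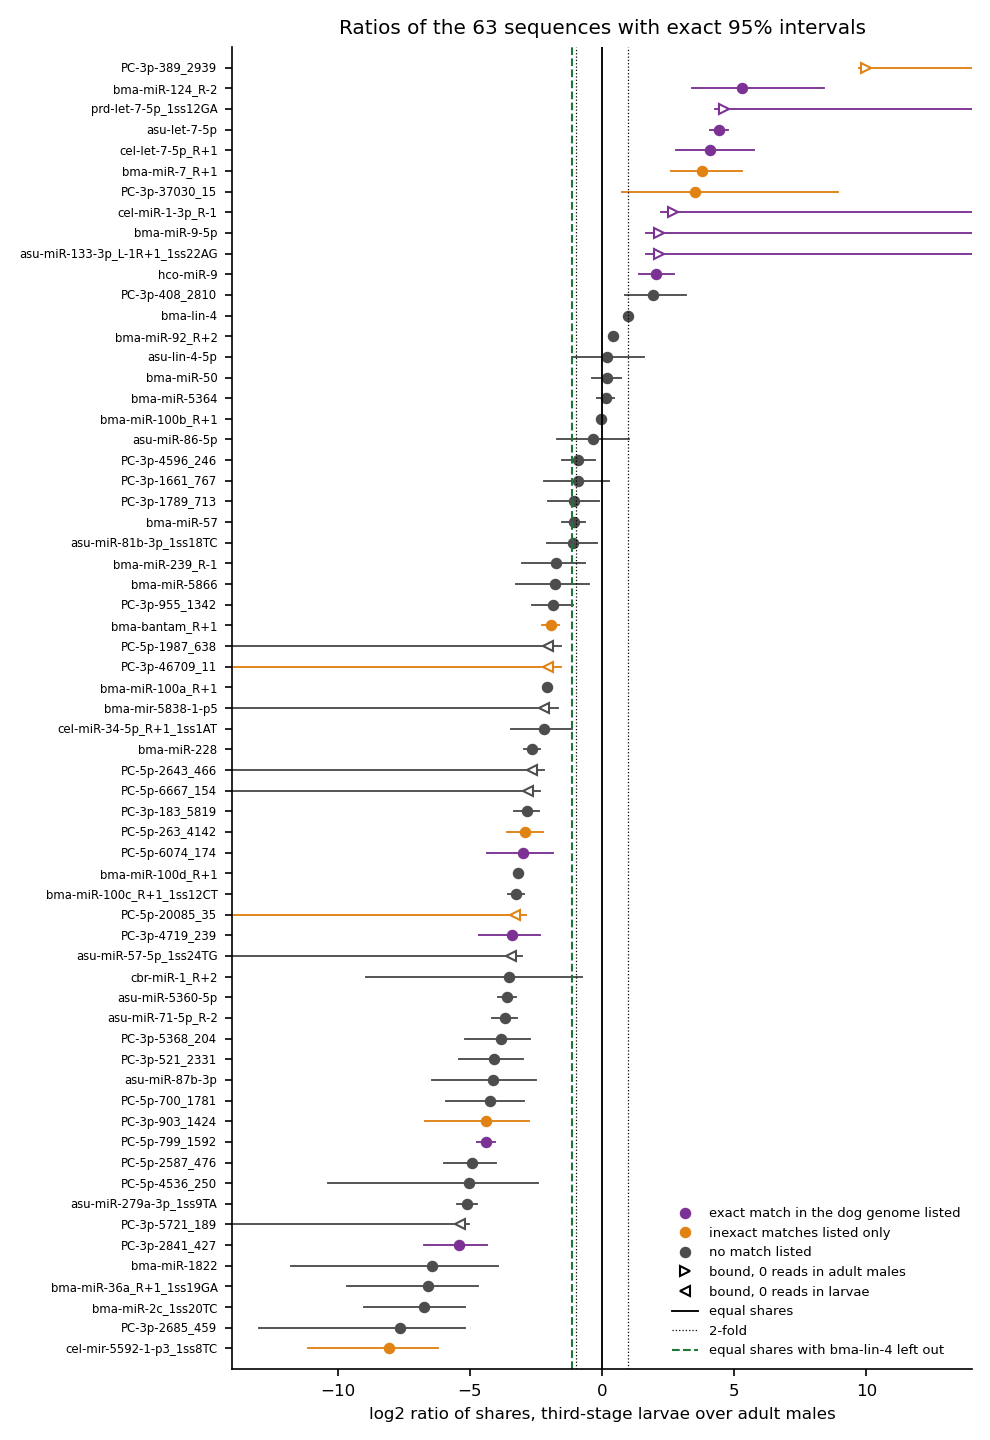
log2 ratio of shares (x axis, third-stage larvae over adult males) of the 63 sequences, one per line, with exact 95% intervals that cover counting error, coloured by the matches listed in the dog genome. Open triangles are bounds against 3 counts where 1 library had 0 reads, and their intervals run off the axis. The dashed line, 1.13 below 0, marks equal shares with bma-lin-4 left out. The 12 rows above 2-fold include 11 with a listed dog genome match, against 21 among all 63, and 42 rows lie below 2-fold on the other side.

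**Figure D4:**
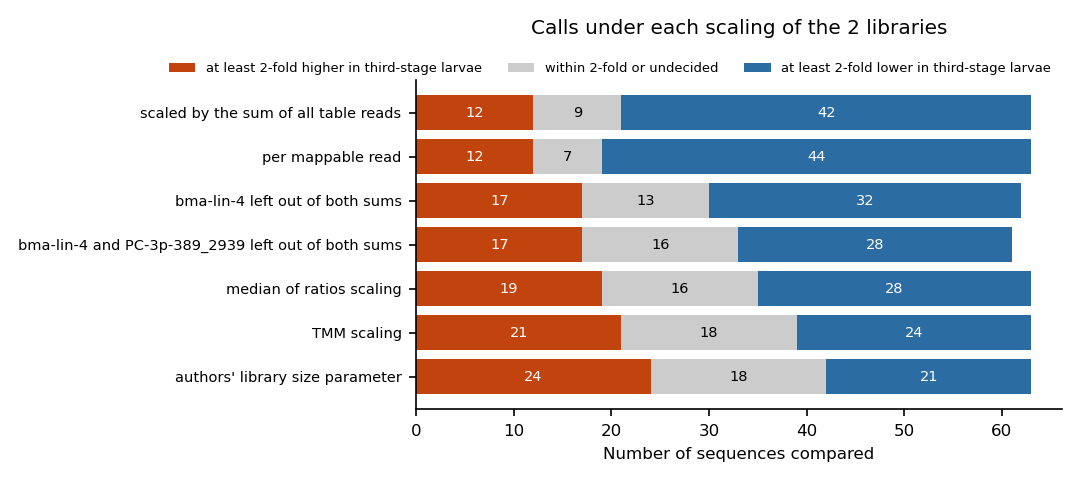
Number of sequences (x axis) whose share in third-stage larvae was higher by 2-fold or more, within 2-fold or undecided, and lower by 2-fold or more, under 7 scalings of the libraries, one per bar. The higher count runs between 12 and 24 and the lower count between 21 and 44.

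The let-7 family was the main named group with higher shares in larvae. All 3 of its compared rows were higher, and their sum was 22.1-fold (17.8 to 27.8) higher, at 5.69% of the larval against 0.258% of the male reads. asu-let-7-5p had 1795 reads in larvae and 80 in males, a 21.5-fold (17.2 to 27.2) higher share that became 46.9-fold with bma-lin-4 left out. In the other libraries it had 175 reads in microfilariae, 4684 in fourth-stage larvae and 278 in females, so that both larval libraries stood above the adult ones. cel-let-7-5p_R+1, which is asu-let-7-5p with 1 more base, had 88 reads in larvae against 5 in males. prd-let-7-5p_1ss12GA, which differs by G12A, from asu-let-7-5p to this row, had 77 reads in larvae against 0 in males. Its share was 24.6-fold higher against 3 counts, with an exact lower limit of 19.5-fold. These 3 rows share most of their sequence and are not independent.

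Conserved miRNAs of nerve and muscle cells followed, in small numbers. bma-miR-124_R-2, of the family found in nerve cells from worms to mammals, had 83 reads in larvae and 2 in males and was 39.7-fold (10.7 to 334) higher. bma-miR-7_R+1, a family studied in sensory and secretory cells, had 87 reads in larvae against 6 in males and was 13.9-fold (6.13 to 38.9) higher. hco-miR-9, whose family acts in neural development in flies and vertebrates, had 108 reads in larvae against 25 in males, 4.14-fold (2.66 to 6.67) higher, and bma-miR-9-5p, its sequence without the first base, had 14 reads in larvae against 0 in males. The remaining neuronal row went the other way: asu-miR-87b-3p had 3 reads in larvae and 50 in males, 17.4-fold (5.62 to 87.2) lower. The neuronal list as a sum was 2.63-fold (1.97 to 3.56) higher in larvae, with 2 of 3 compared rows higher and 1 lower. For muscle, cel-miR-1-3p_R-1 had 20 reads in larvae against 0 in males and asu-miR-133-3p_L-1R+1_1ss22AG had 14 reads in larvae against 0 in males. Against 3 counts they were 6.38-fold and 4.47-fold higher, with exact lower limits of 4.73-fold and 3.18-fold. cbr-miR-1_R+2, the same miR-1 with 3 more bases at its end, had 1 read in larvae and 11 in males, so the forms of miR-1 lay on opposite sides.

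The candidate PC-3p-389_2939 was the second most abundant larval row, with 3219 reads, or 9.34%, against 0 in males. Its share was 1027-fold higher against 3 counts, and its exact interval began at 835-fold. It had 2060 reads in fourth-stage larvae, or 0.632% of that deeper library, and 0 in microfilariae and females. PC-3p-37030_15 had 12 reads in larvae and 1 in males, 11.5-fold (1.70 to 491) higher. PC-3p-408_2810 had 36 reads in larvae against 9 in males, 3.83-fold (1.81 to 9.04) higher. In microfilariae it had 5206 reads, or 0.716% against 0.105% in third-stage larvae.

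Matches in the dog genome, which the authors listed beside the table, were given for 21 of the 63 rows. Of the 12 rows higher in larvae, 11 had a listed match, exact for 8 and inexact for 3, and PC-3p-408_2810 was the row with none. The 11 include 3 let-7 rows and 2 miR-9 rows that overlap in sequence. Of the 42 rows lower in larvae, 10 had a match, exact for 4 and inexact for 6, and of the 9 rows within 2-fold 0 had one. With bma-lin-4 left out, 11 of 17 rows higher in larvae had a match, 8 of 32 lower and 2 of 13 within 2-fold. Rows with a match held 16.9% of the larval and 9.96% of the male table reads, or 57.4% in larvae and 15.5% in males with bma-lin-4 left out. With PC-3p-389_2939 not counted among them, they held 7.54% of the larval and 9.96% of the male table reads, so the direction turned. With bma-lin-4 left out, these shares were 25.7% in larvae and 15.5% in males. let-7, miR-1, miR-9, miR-124 and miR-133 are conserved between nematodes and mammals, so a match does not tell the 2 animals apart, and the part of dog RNA in the ratios was not tested. With all matching rows left out of both libraries, 2 of 42 rows were higher in larvae and 29 lower. The rows higher were then bma-lin-4, at 2.14-fold, and PC-3p-408_2810, and the muscle and neuronal sums turned to lower in larvae, on 1 remaining compared row each.

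The miR-100 family, one of the oldest animal miRNA families and related to miR-51 of C. elegans, was the largest group with lower shares in larvae. Its sum was 7.48% of the larval and 31.3% of the male reads, 4.19-fold (4.01 to 4.38) lower in larvae by table share, 1.92-fold lower with bma-lin-4 left out, and 1.22-fold higher with the authors' parameter. The paralogs did not share one ratio. bma-miR-100d_R+1 had 566 reads in larvae and 4899 in males, 9.04-fold (8.28 to 9.88) lower, and bma-miR-100c_R+1_1ss12CT had 97 reads in larvae against 885 in males, 9.53-fold (7.72 to 11.9) lower. bma-miR-100a_R+1 had 874 reads in larvae against 3529 in males, 4.22-fold (3.91 to 4.55) lower by table share and 1.22-fold higher with the authors' parameter. bma-miR-100b_R+1 had 1027 reads in larvae and 1022 in males, a ratio of 0.962 (0.881 to 1.05). The intervals of these ratios did not overlap between b, a and the pair of c and d, a difference that no scaling alters. In larvae bma-miR-100b_R+1 was thus the most abundant of the 4, and in males bma-miR-100d_R+1 was. The candidate PC-5p-700_1781 had 5 reads in larvae against 90 in males and lay on the side of bma-miR-100c_R+1_1ss12CT, 18.8-fold (7.76 to 59.3) lower.

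Several other named miRNAs were far lower in larvae. asu-miR-279a-3p_1ss9TA, the fourth most abundant row of males, had 62 reads in larvae and 2052 in males, 34.6-fold (26.8 to 45.3) lower. Its Drosophila relative limits the number of carbon dioxide sensing neurons. bma-miR-2c_1ss20TC, of a family known from invertebrates, had 3 reads in larvae against 305 in males and was 106-fold (36.0 to 518) lower, and PC-3p-2685_459, its longer form, had 1 read in larvae against 194 in males. asu-miR-71-5p_R-2, of a family that acts in lifespan and stress resistance in C. elegans, had 42 reads in larvae against 518 in males and was 12.9-fold (9.40 to 18.1) lower. bma-miR-1822 had 1 read in larvae against 83 in males and was 86.7-fold (15.1 to 3465) lower, and asu-miR-5360-5p had 77 reads in larvae against 892 in males, 12.1-fold (9.58 to 15.5) lower. bma-miR-228, which has the seed of vertebrate miR-183, had 113 reads in larvae against 676 in males, 6.25-fold (5.11 to 7.69) lower, and stayed below equal shares under every scaling. cel-miR-34-5p_R+1_1ss1AT, of the stress-related miR-34 family, had 9 reads in larvae against 40 in males, 4.64-fold (2.22 to 10.9) lower by table share and 1.10-fold higher with the authors' parameter.

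bma-miR-36a_R+1_1ss19GA, of the miR-35 family that C. elegans embryos need, had 2 reads in larvae and 183 in males, 95.6-fold (26.1 to 795) lower. Adult males carry no embryos, and the same row had 19034 reads in females, 4 in fourth-stage larvae and 1 in microfilariae. The whole family list held 9 larval reads and 185 male reads, a smaller difference of 21.5-fold (11.1 to 47.7) lower in larvae. The part of female RNA in the male value was not tested.

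The row with the lowest ratio was cel-mir-5592-1-p3_1ss8TC, with 2 reads in larvae and 513 in males, 268-fold (73.8 to 2218) lower. It is listed with inexact dog genome matches, and in the other libraries it had 83 reads in microfilariae, 5 in fourth-stage larvae and 29 in females. Among the candidates, PC-5p-799_1592 had 77 reads in larvae against 1550 in males and was 21.0-fold (16.7 to 26.8) lower, and PC-3p-2841_427, which contains it whole, had 7 reads in larvae against 287 in males and was 42.8-fold (20.5 to 107) lower. Both are listed with an exact match in the dog genome. PC-5p-2587_476 had 10 reads in larvae against 289 in males, 30.2-fold (16.2 to 63.6) lower. PC-3p-5721_189 had 0 reads in larvae against 119 in males, 41.4-fold lower at 3 counts, with an exact limit of 33.2-fold.

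The seed of PC-5p-799_1592 and PC-3p-2841_427 is that of bma-miR-57, whose seed is also the one of the miR-10 family. Taken by seed, 4 compared rows had it, with 152 larval and 2008 male reads over the table, 13.8-fold (11.7 to 16.4) lower in larvae. Of these male reads, 1550 were of PC-5p-799_1592 and 287 of PC-3p-2841_427. Named miR-57 rows alone had 68 reads in larvae and 171 in males. Their sum was 2.63-fold (1.97 to 3.53) lower in larvae by table share, and higher under TMM, median of ratios and the authors' parameter. bma-miR-57 had 68 reads in larvae and 137 in males, 2.10-fold (1.56 to 2.86) lower by table share, 1.04-fold higher with bma-lin-4 left out, and higher under TMM, median of ratios and the authors' parameter. asu-miR-57-5p_1ss24TG had 0 reads in larvae and 31 in males, 10.8-fold lower at 3 counts with an exact limit of 8.27-fold, and 0 in the other libraries. bma-mir-5838-1-p5, with 0 reads in larvae and 13 in males, was likewise at 0 elsewhere. Among the 63 rows there were 49 distinct seeds, of which 7 were shared by 2 or more rows.

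The bantam seed gave smaller differences. bma-bantam_R+1, whose Drosophila relative promotes growth, had 106 reads in larvae and 388 in males, 3.82-fold (3.08 to 4.79) lower by table share but 1.05-fold higher under TMM and 1.34-fold higher with the authors' parameter. asu-miR-81b-3p_1ss18TC had 16 reads in larvae against 33 in males, 2.15-fold (1.15 to 4.19) lower, and 1.01-fold higher with bma-lin-4 left out. The candidate PC-3p-1661_767, with the same seed, had 10 reads in larvae against 18 in males, a ratio of 0.532 (0.219 to 1.22).

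A group of rows lay near equal shares in a table where most were lower in larvae. bma-miR-92_R+2, of the miR-25 and miR-92 family, had 789 reads in larvae and 560 in males, 1.35-fold (1.21 to 1.51) higher, and 2.95-fold higher with bma-lin-4 left out. bma-miR-5364 had 171 reads in larvae against 149 in males, a ratio of 1.10 (0.877 to 1.38), and bma-miR-50 had 65 reads in larvae against 55 in males, a ratio of 1.13 (0.778 to 1.65). asu-lin-4-5p had a ratio of 1.15 (0.455 to 2.97). With bma-lin-4 left out, these 4 rows and bma-miR-100b_R+1 were the 5 that moved from within 2-fold to at least 2-fold higher in larvae, at 2.10-fold to 2.95-fold. asu-miR-86-5p had 10 reads in larvae against 12 in males, too few to tell a 2-fold difference from equal shares.

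The remaining rows were lower in larvae by table share. PC-3p-4596_246, with 36 reads in larvae against 64 in males, had a ratio of 0.539 (0.348 to 0.823) and did not reach 2-fold. Its direction turned with the scaling, to 1.18 with bma-lin-4 left out, 2.17 under TMM and 2.76 with the authors' parameter. PC-3p-903_1424 had 3 reads in larvae and 60 in males, PC-3p-521_2331 had 7 reads in larvae against 113 in males, and PC-5p-4536_250 had 1 read in larvae against 31 in males, between 16.9-fold and 32.4-fold lower. PC-3p-5368_204 had 7 reads in larvae against 95 in males and PC-5p-6074_174, which shares at least 15 bases with it, had 7 reads in larvae against 53 in males. PC-3p-4719_239 had 8 reads in larvae against 81 in males, PC-5p-263_4142 had 22 reads in larvae against 157 in males, and PC-3p-183_5819 had 43 reads in larvae against 297 in males, between 7.21-fold and 10.6-fold lower. PC-3p-955_1342 had 20 reads in larvae against 69 in males, bma-miR-5866 had 7 reads in larvae against 23 in males, bma-miR-239_R-1 had 9 reads in larvae against 29 in males, and PC-3p-1789_713 had 15 reads in larvae against 30 in males. These 4 lay between 2.09-fold and 3.60-fold lower by table share and higher in larvae under TMM and with the authors' parameter. The rows with 0 larval reads not yet named were PC-5p-20085_35 with 28 male reads, PC-5p-6667_154 with 20, PC-5p-2643_466 with 18, and PC-3p-46709_11 and PC-5p-1987_638 with 12 each. In females PC-5p-1987_638 had 2105 reads (0.560%), PC-5p-2643_466 had 1406 (0.374%) and PC-5p-6667_154 had 1699 (0.452%), against male shares of 0.0364%, 0.0546% and 0.0606%.

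By list, 9 of the sums were at least 2-fold lower in larvae, 4 at least 2-fold higher and 4 within 2-fold. The 4 higher ones were let-7, miR-9/miR-79, muscle and neuronal miRNAs. The miR-9/miR-79 sum was 4.67-fold (3.02 to 7.50) higher. The lower ones ran between 2.63-fold for the miR-57/miR-10 family and 107-fold for the miR-2/miR-43 family. The sums of miR-2/miR-43, miR-279/miR-45, miR-35/miR-36, miR-71 and miR-228/miR-183 were below equal shares under every scaling. Those of miR-57/miR-10, miR-80/bantam, miR-34 and miR-100/miR-51 turned under at least 1. The miR-72/miR-31 family had 6 reads in larvae and 7 in males, too few to place.

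**Figure D5:**
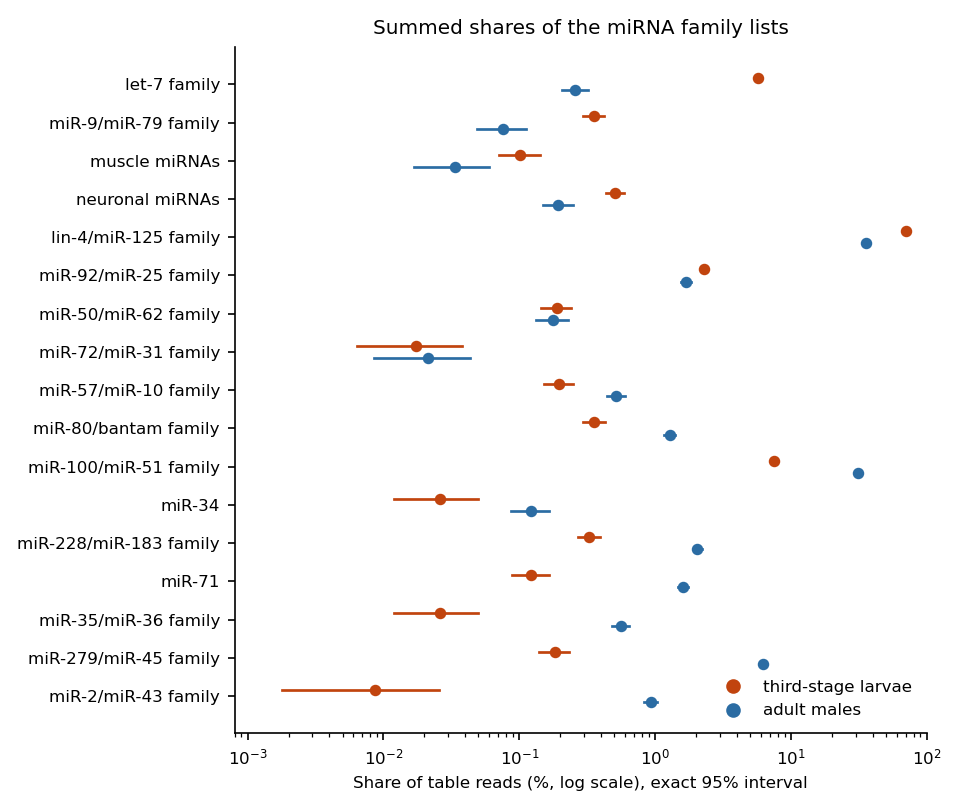
Summed share of table reads (x axis, %, log scale) of each miRNA list with reads, in third-stage larvae (upper point of each line) and adult males (lower point), with exact 95% intervals. Lists are ordered by their ratio, with let-7 at the top (5.69% in larvae and 0.258% in males) and miR-2/miR-43 at the bottom (0.00871% in larvae and 0.931% in males).

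Fourth-stage larvae and adult females gave a comparison of larvae and adults with no library in common. It depended on bma-lin-4, whose removal shifted every log2 ratio of fourth-stage larvae over females by 3.26. By table share, 17 of 148 rows (11.5%) were at least 2-fold higher in fourth-stage larvae and 126 (85.1%) lower. Of the 59 rows compared in both, 11 were higher in third-stage larvae than in males and 10 higher in fourth-stage larvae than in females, with 5 in both groups, 45.5% of the 11 and 50% of the 10. These 5 were the 3 let-7 rows, PC-3p-389_2939 and asu-miR-133-3p_L-1R+1_1ss22AG. The other 6 of the 11 were lower in fourth-stage larvae, namely bma-miR-124_R-2, bma-miR-7_R+1, cel-miR-1-3p_R-1, bma-miR-9-5p, hco-miR-9 and PC-3p-408_2810. The log2 ratio of fourth-stage larvae over females was -2.93 for bma-miR-124_R-2, -3.37 for hco-miR-9 and -3.84 for cel-miR-1-3p_R-1. Of the same 59 rows, 39 were lower in third-stage larvae than in males and 46 lower in fourth-stage larvae than in females. Both groups held 36 rows, 92.3% of the 39 and 78.3% of the 46. With most of the 59 lower in each comparison, a large overlap follows from these numbers alone.

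With bma-lin-4 left out, 33 of 147 rows (22.4%) were at least 2-fold higher in fourth-stage larvae than in females and 42 (28.6%) lower. Of the 58 rows then compared in both, 16 were higher in third-stage larvae than in males and 16 higher in fourth-stage larvae than in females, and 10 were in both groups, 62.5% of each. These 10 were the 5 rows above with bma-miR-92_R+2, bma-miR-5364, asu-lin-4-5p, bma-miR-7_R+1 and PC-3p-408_2810, so that the last 2 changed direction in fourth-stage larvae with the scaling, at -1.98 and -1.86 on the log2 scale by table share against 1.29 and 1.40 without bma-lin-4. bma-miR-124_R-2, hco-miR-9 and cel-miR-1-3p_R-1 were then within 2-fold in fourth-stage larvae. Of the same 58 rows, 30 were lower in third-stage larvae than in males and 16 lower in fourth-stage larvae than in females. Rows lower in both numbered 13, 43.3% of the 30 and 81.25% of the 16. Of the 30, 14 were within 2-fold and 3 higher in fourth-stage larvae. bma-miR-100b_R+1 was higher in third-stage and lower in fourth-stage larvae. The 13 included bma-miR-36a_R+1_1ss19GA, bma-miR-100d_R+1, asu-miR-279a-3p_1ss9TA and asu-miR-87b-3p, which were also lower in both by table share.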

How the data were processed

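Per the labels' protocols, RNA was extracted with a Norgen Biotek kit from concentrated medium, followed by the Illumina TruSeq small RNA preparation. The submitters' processing notes name bcl2fastq 1.8.4 and Bowtie. Per the file headers, reads were trimmed of adapter and only lengths of 18 to 25 nt were kept. How Bowtie was set, the genome build and the miRNA database are not given in the sources used. The deposited raw columns hold estimated counts per distinct sequence, not normalized, with 7 fractional values in third-stage larvae and 9 in males, here rounded to the nearest whole number. The deposited normalized signal is the raw count over a library size parameter set by the authors, and it entered no value beyond that parameter (0.0851 for third-stage larvae, 0.418 for males), an alternative scaling. Suffixes such as R+1 are not explained by the file, and 1 emptied line is not analysed here.

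Shares of the column sums, Clopper-Pearson intervals and ratios with exact conditional binomial 95% intervals were computed with SciPy 1.17.1 and tested on simulated data. Against 0 reads a ratio was taken at 3 counts, which is not the limit of its exact interval. TMM factors came from edgeR 4.0.16 and median of ratios factors from DESeq2 1.42.0, for scaling only, since 1 library a group allows no test. Rows were put in lists by name. The naming rule took the 10 most abundant rows of each library, the 10 highest and 10 lowest ratios at 50 or more reads, rows with 0 reads in 1 library, and list members. The 18 compared rows outside it are named so that all 63 are accounted for. The members, lists and rules were chosen with earlier results of these data known.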

Additional observations from a re-analysis of the deposited data

How the results depend on the processing

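The 12 of 63 sequences higher in third-stage larvae became 21 under TMM, 19 under median of ratios and 24 with the authors' parameter, each of 63. Other settings changed the number compared. They gave 2 of 42 with dog genome matches left out, 7 of 41 at a minimum of 50 reads and 19 of 113 at a minimum of 3 reads. The 42 of 63 higher in males became 24 under TMM and 21 with the authors' parameter. With candidates left out they were 21 of 37, and the 42 had held 21 named rows. At a 4-fold threshold 11 of the 63 were higher and 35 lower in larvae. With sequences of the same first 18 bases summed, 10 of 57 were higher and 38 lower. The ratio of bma-lin-4, larvae over males, was 1.97 by table share, 7.95 under TMM, 6.65 under median of ratios, 1.71 per mappable read, 10.1 with the authors' parameter, 2.14 with dog genome matches left out and 2.18 with PC-3p-389_2939 left out, an alternative chosen after seeing the data. Of the 9 list sums at least 2-fold lower in larvae, 4 were so under TMM, 4 under median of ratios, 4 with the authors' parameter and 4 with bma-lin-4 and PC-3p-389_2939 both left out. Using the fractions in place of rounded counts left 12 higher and 42 lower.

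Some ratios, larvae over males, were below 1 by table share and turned to above 1 under other scalings. Rows below 1 but within 2-fold by table share did so too. With the authors' parameter PC-3p-4596_246 was at 2.76, PC-3p-1661_767 at 2.73, asu-miR-86-5p at 4.09 and bma-miR-100b_R+1 at 4.93. The ratios that follow were at least 2-fold lower in larvae by table share. With bma-lin-4 left out, bma-miR-57 was at 1.04, asu-miR-81b-3p_1ss18TC at 1.01 and PC-3p-1789_713 at 1.05, and with PC-3p-389_2939 also left out they were at 1.52, 1.49 and 1.53, with the miR-57/miR-10 sum at 1.22. Under median of ratios these 3 rows were at 1.60, 1.56 and 1.61 and the miR-57/miR-10 sum at 1.28. Under TMM they were at 1.91, 1.87 and 1.93, bma-miR-5866 at 1.17, bma-miR-239_R-1 at 1.196, bma-bantam_R+1 at 1.05, PC-3p-955_1342 at 1.12, the miR-57/miR-10 sum at 1.53 and the miR-80/bantam sum at 1.12. With the authors' parameter the same 3 rows were at 2.44, 2.38 and 2.46, bma-miR-100a_R+1 at 1.22, cel-miR-34-5p_R+1_1ss1AT and the miR-34 sum at 1.10, bma-miR-5866 at 1.49, bma-miR-239_R-1 at 1.52, bma-bantam_R+1 at 1.34 and PC-3p-955_1342 at 1.42. There the miR-100/miR-51 sum was at 1.22, the miR-57/miR-10 sum at 1.95 and the miR-80/bantam sum at 1.43. In the opposite direction, with dog genome matches left out the muscle sum fell to 0.0943, against 3.05 by table share, and the neuronal sum to 0.0741, against 2.63. The upper bounds of bma-mir-5838-1-p5, PC-5p-1987_638 and PC-3p-46709_11, which had 0 larval reads, lay at 1.13, 1.23 and 1.23 with the authors' parameter and set no direction there. The turns under other scalings follow from 1 factor applied to all ratios, and those without dog genome matches from the rows left out.

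Depth limits the rows with few reads, such as PC-3p-1661_767, with 10 reads in larvae and 18 in males and a ratio of 0.532 (0.219 to 1.22). No paired analysis was possible because each group had 1 library.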

Other observations

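Sequences outside the comparison, with at most 9 reads in each library, numbered 77 with a read in third-stage larvae (164 reads in all) and 124 with a read in males (278 reads in all). First bases differed with the leading rows. Sequences that begin with T held 82.7% of the larval and 66.5% of the male reads, and 41.0% of the larval and 47.9% of the male reads with bma-lin-4 left out. Sequences that begin with G held 1.91% of the larval and 11.1% of the male reads without bma-lin-4.

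Among the 63 sequences, 19 were related to another of them, by one lying inside the other, by the same start with at most 2 substitutions, or by 15 shared bases, so they are fewer than 63 independent small RNAs.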
